A study of Homo sapiens with 6 samples.

Results

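Transcripts of the aryl hydrocarbon receptor (AHR) pathway were followed in 3 EGFR-mutant non-small cell lung cancer cell lines and in the drug-resistant derivative of each. The 7 genes described, of 21463 in the gene tables, are the repressor AHRR, the receptor AHR, its partners ARNT and ARNT2, and the target genes CYP1A1, CYP1B1 and TIPARP. They were picked by name, with AHRR leading because it was higher in resistant than in parental cells of every line, so their resistant-to-parental values are given as a description and are not tested. The resistant cells were HCC827-GR and PC9-GR, both selected with gefitinib from lines that carry the EGFR change labelled E19Del, and H1975-OR, selected with osimertinib from a line with L858R/T790M. Gefitinib and osimertinib are EGFR kinase inhibitors, of which osimertinib also acts on the T790M form. They are set against untreated parental HCC827, PC9 and H1975 cells. The drug concentration was raised in steps over 90 days, and the labels put the half-maximal inhibitory concentration at 4.288 to 12.485 µM in resistant cells and at 0.016 to 0.07 µM in parental cells. Each line contributed 1 resistant and 1 parental library of poly(A) RNA. The labels do not say whether the resistant cells were single clones, or whether drug was still present when RNA was taken.

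AHR is a transcription factor that waits in the cytoplasm in a complex with the chaperone HSP90 and moves to the nucleus when it binds a ligand, such as a polycyclic aromatic hydrocarbon from smoke or a tryptophan metabolite. There it pairs with ARNT and binds the xenobiotic response element, whose core is GCGTG, near genes such as CYP1A1 and CYP1B1, which encode enzymes that oxidise these ligands. AHRR and TIPARP are themselves targets, and their proteins restrain the receptor: AHRR resembles AHR, pairs with ARNT and lacks the activating domain, while TIPARP adds ADP-ribose to AHR. In the lung the pathway is known for its response to tobacco smoke.

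The stretch before the start site is shown for the repressor and for 2 of the targets, since these are the genes whose levels the receptor is known to set through the GCGTG core. RefSeq windows of 250 bases before the start (build GRCh38.p14) were found for 5 of the 7 genes, with 8 start sites in all. The windows are chr5:321464-321713 on the plus strand for the upstream start of AHRR, chr15:74725529-74725778 on the minus strand for CYP1A1, and chr3:156674340-156674589 on the plus strand for the upstream start of TIPARP. Each is written 5′ to 3′ on the gene's strand, and capitals mark GCGTG or, where the core lies on the other strand, CACGC.
AHRR: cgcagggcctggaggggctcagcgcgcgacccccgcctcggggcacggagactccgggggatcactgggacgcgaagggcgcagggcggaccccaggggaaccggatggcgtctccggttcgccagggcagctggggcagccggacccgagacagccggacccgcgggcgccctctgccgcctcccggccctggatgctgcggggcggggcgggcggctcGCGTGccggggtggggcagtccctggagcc
CYP1A1: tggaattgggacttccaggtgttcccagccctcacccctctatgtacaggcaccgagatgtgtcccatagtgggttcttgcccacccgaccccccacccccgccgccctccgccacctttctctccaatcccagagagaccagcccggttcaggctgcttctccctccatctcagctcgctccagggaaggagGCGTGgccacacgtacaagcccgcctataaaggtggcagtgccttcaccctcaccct
TIPARP: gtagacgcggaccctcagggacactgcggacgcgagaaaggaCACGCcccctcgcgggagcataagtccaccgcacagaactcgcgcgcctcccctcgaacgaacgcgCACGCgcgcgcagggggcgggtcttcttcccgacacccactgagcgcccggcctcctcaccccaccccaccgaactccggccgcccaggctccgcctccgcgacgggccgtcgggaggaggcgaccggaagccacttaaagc

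The core lies 30 bases before the AHRR start and 57 bases before the CYP1A1 start, on the gene's own strand in both. The window of the second AHRR start held 2 cores. The windows of AHR, of ARNT and of the other 2 TIPARP starts held none. Of 35116 human promoter windows of the same length, 32.2% held at least 1 core on either strand and 10.2% held at least 2, so a core in such a window is common, and the letters alone do not make a binding site. GCGTG was the 1 motif searched, on both strands.

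The libraries held 21222102 to 29366085 reads on exons, so that 3 reads, taken as the smallest detectable count, correspond to 0.0985 to 0.145 CPM. Levels are exon reads as CPM, which scales each library to a common total of reads, and a level compared between genes is in TPM, which also allows for transcript length. Brackets after a level or ratio hold its 95% interval, which covers counting error alone, because no line had a second library of the same state. In a fit over the 3 lines with the line as a block, edgeR's quasi-likelihood test called 0 of 13541 genes at an adjusted p under 0.05 (0%, with 502 at an unadjusted p under 0.05). Limma-voom also called 0 (0%, with 763 at an unadjusted p under 0.05), while DESeq2 called 58 (0.428%, with 923 unadjusted).

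All 6 epithelial markers were detected in every library, with a summed level of 1735 to 7571 CPM in resistant and 2764 to 13360 CPM in parental cells. Among them, the adhesion genes EPCAM and CDH1 were at 10.6 CPM and 22.1 CPM in resistant HCC827, against 432.5 and 467 CPM in parental HCC827, and at 0.46 and 0.131 CPM in resistant H1975, against 26.6 and 22.4 CPM in parental H1975. In PC9, EPCAM was at 733 CPM in resistant and 745 CPM in parental cells, and CDH1 at 151 CPM in resistant and 213 CPM in parental cells. The 4 lung adenocarcinoma lineage markers, NKX2-1, NAPSA and surfactant genes, summed to 150 CPM in resistant and 433 CPM in parental HCC827. There, NAPSA was at 28.9 CPM in resistant and 289 CPM in parental cells, and NKX2-1 at 121 CPM in resistant and 140.5 CPM in parental cells. The surfactant genes SFTPB and SFTPC were at most 0.0375 CPM in resistant and 3.32 CPM in parental HCC827. In the other lines the lineage markers summed to at most 4.70 CPM in resistant and 9.21 CPM in parental cells. Of 7 leukocyte markers, the pan-leukocyte gene PTPRC was at most 0.419 CPM in resistant and 0.145 CPM in parental libraries, and CD68, a lysosomal gene, gave nearly the whole sum of 125 to 177 CPM in resistant and 55.5 to 140 CPM in parental cells. The 6 fibroblast markers summed to 18.5 to 220 CPM in resistant and 14.98 to 92.6 CPM in parental cells, led by COL1A1 and highest in H1975, and the 5 endothelial markers to 1.13 to 6.08 CPM in resistant and 1.49 to 20.2 CPM in parental cells. The part of these differences in the values below was not tested.

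The repressor AHRR (ENSG00000063438, chr5:304176-438291 on the plus strand, build hg38) was higher in the resistant library of each line. Its level in HCC827 was 20.1 CPM (18.4 to 21.8) in resistant cells, against 2.88 CPM (2.28 to 3.59) in parental cells. In PC9 it was 11.7 CPM (10.3 to 13.1) in resistant and 2.52 CPM (1.88 to 3.31) in parental cells. In H1975 it was 43.8 CPM (41.5 to 46.3) in resistant and 19.7 CPM (18.0 to 21.6) in parental cells. The parental H1975 library thus lay near the resistant HCC827 library, and the groups overlapped across lines while each pair differed beyond counting error. In RNA from a whole culture, more cells with the transcript and more transcript per cell cannot be told apart.

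The resistant-to-parental ratio of AHRR was 6.97 (5.49 to 8.94) in HCC827, 4.63 (3.43 to 6.35) in PC9 and 2.22 (1.998 to 2.47) in H1975. The line with the highest parental level thus had the smallest ratio. After addition of 1 CPM, the log2 ratios were 2.44, 1.85 and 1.11. Here and below, sets of 3 log2 ratios follow the order HCC827, PC9, H1975. AHRR was 1 of 15 genes at least 2-fold higher in all 3 lines, among 11481 genes with at least 10 CPM in a library (0.131%). This is the value on which it was picked.

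**Figure D1:**
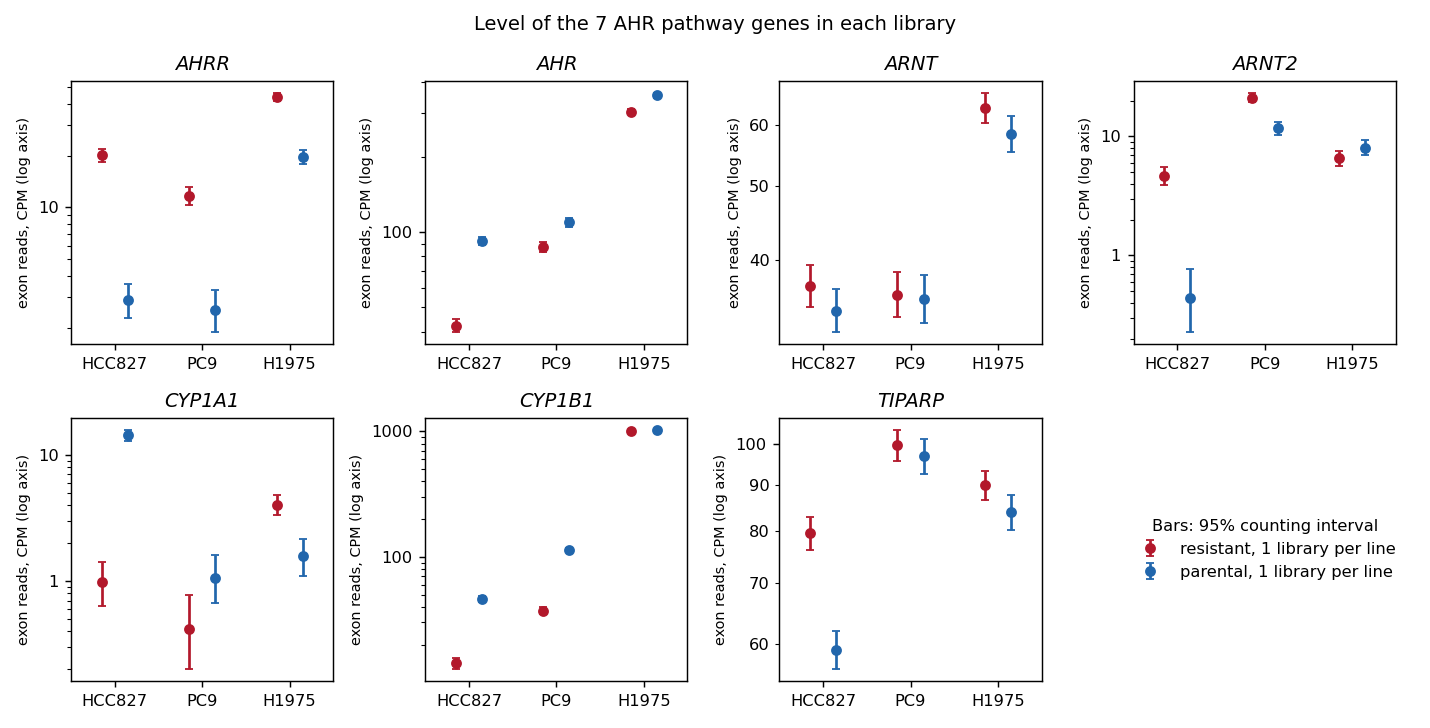
Exon read level in CPM (vertical log axis, a different range in each panel) of the 7 genes in the resistant (red, left) and parental (blue, right) library of each line, with bars for the 95% counting interval. AHRR lies higher in the resistant library of every line, CYP1B1 lies lower in resistant HCC827 and PC9 and at 1009 CPM in resistant and 1020 CPM in parental H1975, and ARNT is nearly level.

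Reads within introns come largely from RNA that is not yet spliced, and they gave the same direction for AHRR. Its intron level was 9.49 CPM in resistant and 2.59 CPM in parental HCC827, a ratio of 3.67 (2.81 to 4.84). It was 6.33 CPM in resistant and 1.70 CPM in parental PC9, a ratio of 3.73 (2.57 to 5.56). It was 23.6 CPM in resistant and 14.1 CPM in parental H1975, a ratio of 1.68 (1.47 to 1.92). These intron levels use the exon scaling factors. With factors from the intron counts themselves, the AHRR intron log2 ratio was 1.95 in HCC827, against 1.55, and 2.17 in PC9, against 1.44. Intron totals are smaller than exon totals, so the 1 CPM added also weighs less on that scale. With 0.1 CPM added and the exon factors, the AHRR log2 ratio in PC9 was 1.84 for intron and 2.17 for exon reads. For every 100 exon reads, AHRR had 47.3 intron reads in resistant and 89.9 in parental HCC827, 54.3 in resistant and 67.3 in parental PC9, and 53.8 in resistant and 71.2 in parental H1975.

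The AHRR span overlaps the apoptosis gene PDCD6 by 49681 bases on the same strand, where intron reads of the genes cannot be told apart. PDCD6 did not move with AHRR in every line. It was at 79.9 CPM in resistant and 117 CPM in parental HCC827, at 248 CPM in resistant and 278 CPM in parental PC9, and at 143 CPM in resistant and 105 CPM in parental H1975. Of its exon reads, 52.5% mapped uniquely, against 99.6% to 100% of those of AHRR. The nearest expressed genes on either side were SDHA, a subunit of mitochondrial complex II, 47476 bases below, and EXOC3, a subunit of the exocyst, 4867 bases above. For SDHA the log2 ratio was -0.23 in HCC827, -0.12 in PC9 and 0.35 in H1975. EXOC3 had -0.12, 0.19 and 0.41. In H1975, AHRR and these 3 genes were all higher in the resistant library, by less than the AHRR value of 1.11.

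**Figure D2:**
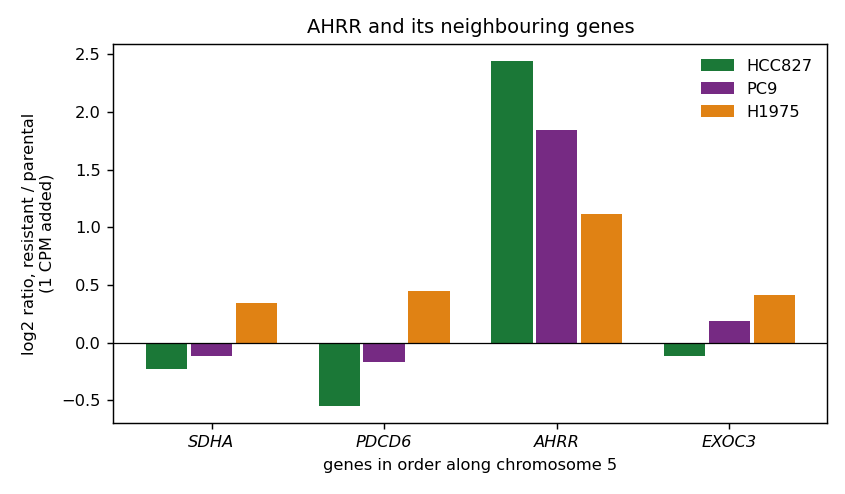
Log2 ratio of resistant to parental CPM, with 1 CPM added, for AHRR and the genes beside it on chromosome 5, as bars by line in chromosome order. The AHRR bars reach 2.44, 1.85 and 1.11, while those of SDHA, PDCD6 and EXOC3 lie between -0.55 and 0.45.

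The receptor AHR (ENSG00000106546, chr7:16916359-17346152 on the plus strand) was lower in the resistant library of each line when every exon read was counted. It was at 42.2 CPM (39.8 to 44.7) in resistant and 92.0 CPM (88.5 to 95.7) in parental HCC827. It was at 87.3 CPM (83.6 to 91.1) in resistant and 109.7 CPM (105 to 114) in parental PC9. It was at 303 CPM (297 to 309) in resistant and 353 CPM (345 to 360) in parental H1975. The H1975 libraries held more of it than those of either other line, and the resistant-to-parental ratio was 0.458 (0.427 to 0.492) in HCC827, 0.796 (0.749 to 0.845) in PC9 and 0.86 (0.835 to 0.886) in H1975.

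These AHR values rest mostly on reads not counted as unique, since 5.82% to 11.8% of its exon reads were counted as mapping uniquely. A readthrough gene, AC019117.2, shares 46858 bases with AHR on the same strand and had at most 3.02 CPM in resistant and 1.91 CPM in parental libraries. Resistant HCC827 had 88 unique exon reads against 147 in parental cells, resistant PC9 had 243 against 266 in parental cells, and resistant H1975 had 799 against 577 in parental cells. Scaled for depth, these gave ratios of 0.617 (0.468 to 0.809), 0.794 (0.664 to 0.948) and 1.08 (0.967 to 1.20). The direction thus held in HCC827 and PC9 and not in H1975, where unique reads were slightly higher in the resistant library.

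Intron reads of AHR differed far more than exon reads in HCC827, with 99 in the resistant library and 1567 in the parental library, of which 64 in the resistant and 1502 in the parental library mapped uniquely. The intron ratio there was 0.065 (0.0525 to 0.0797), the lowest intron ratio of AHR in the 3 lines. It was 0.715 (0.594 to 0.858) in PC9 and 0.587 (0.529 to 0.65) in H1975. The span given for AHR begins well upstream of its RefSeq start and takes in a long stretch of other sequence. On the far side of that stretch, 82926 bases below and on the other strand, AGR2, a protein disulfide isomerase gene of secretory epithelium, had 0 reads in resistant HCC827, against 118 CPM in parental cells. This is at least 1050-fold lower in the resistant library when the 0 is set at 3 reads. AGR2 was at 11.3 CPM in resistant and 55.5 CPM in parental PC9, and in H1975 it had 0 reads in resistant and 0.637 CPM in parental cells. The tables give no position for the AHR intron reads within the span.

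**Figure D3:**
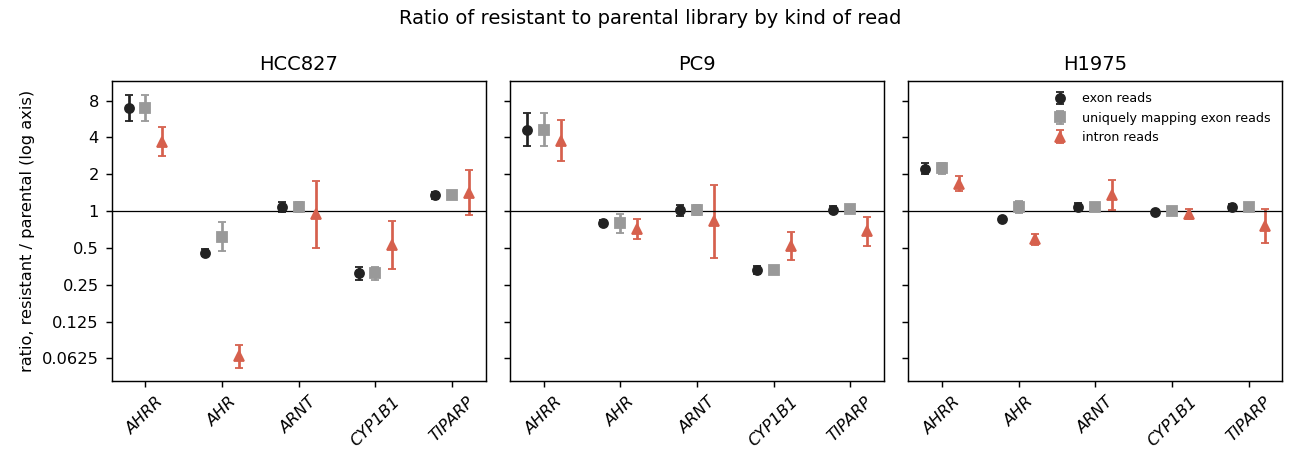
Ratio of resistant to parental level (log axis, bars for the 95% counting interval) by kind of read (all exon reads, those that mapped uniquely, and intron reads), for 5 of the genes in each line. AHRR lies above 1 for every kind of read in every line, and AHR in HCC827 lies at 0.065 for intron reads, against 0.458 for exon reads.

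ARNT (ENSG00000143437, chr1:150809705-150876768 on the minus strand), the nuclear partner that AHR and AHRR both bind, was nearly level between states. It was at 37.0 CPM in resistant and 34.3 CPM in parental HCC827, at 36.0 CPM in resistant and 35.6 CPM in parental PC9, and at 63.2 CPM in resistant and 58.4 CPM in parental H1975. Its log2 ratios of 0.11, 0.02 and 0.11 kept it within 1.25-fold in all 3 lines, as were 18.2% of the 11481 genes, and on TPM the ratio in PC9 was on the other side of 0. ARNT2 (ENSG00000172379, chr15:80404350-80597937 on the plus strand), a close relative of ARNT that is best known from nervous tissue, was less even. It had 125 reads in resistant HCC827 and 12 in parental cells, or 4.69 CPM in resistant and 0.437 CPM in parental cells, a ratio of 10.7 (5.92 to 21.3). In PC9 it was at 21.3 CPM in resistant and 11.7 CPM in parental cells, a ratio of 1.82 (1.56 to 2.13). In H1975 it was at 6.57 CPM in resistant and 8.06 CPM in parental cells, a ratio of 0.815 (0.665 to 0.999). ARNT2 was thus higher in both gefitinib-selected derivatives and slightly lower in the osimertinib-selected one. Per length, ARNT exceeded ARNT2 in all 6 libraries, by 10.7 times in resistant and 107 times in parental HCC827, 2.31 times in resistant and 4.15 times in parental PC9, and 13.1 times in resistant and 9.86 times in parental H1975.

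CYP1A1 (ENSG00000140465, chr15:74719542-74725610 on the minus strand), the target used most often as a readout of receptor activity, was low in 5 of the 6 libraries and did not move one way. In HCC827 it had 26 reads in resistant and 394 in parental cells, or 0.975 CPM in resistant and 14.4 CPM in parental cells, which is 14.7-fold lower (9.90 to 22.8) in the resistant library. In PC9 it had 10 reads in resistant and 22 in parental cells, a ratio of 0.393 (0.166 to 0.866). In H1975 it had 122 reads in resistant and 37 in parental cells, or 4.01 CPM in resistant and 1.57 CPM in parental cells, a ratio of 2.55 (1.75 to 3.79). The gene was thus lower with AHRR higher in HCC827 and PC9, and both were higher in resistant H1975. Its neighbours EDC3, an mRNA decapping factor gene, and CSK, a kinase gene, stood at 0.02 and 0.09 (log2 ratio, HCC827), beside -2.96 for CYP1A1.

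CYP1B1 (ENSG00000138061, chr2:38066973-38109902 on the minus strand), which oxidises oestrogens as well as aromatic hydrocarbons, was lower in both gefitinib-selected derivatives. It was at 14.2 CPM (12.8 to 15.7) in resistant and 45.8 CPM (43.3 to 48.4) in parental HCC827, which is 3.23-fold lower in the resistant library. It was at 37.2 CPM (34.8 to 39.7) in resistant and 113 CPM (109 to 118) in parental PC9, which is 3.04-fold lower. In H1975 it was at 1009 CPM (997 to 1020) in resistant and 1020 CPM (1007 to 1033) in parental cells, a ratio of 0.989 (0.972 to 1.01). By intron reads the ratio was 0.531 in HCC827, 0.519 in PC9 and 0.951 in H1975. Whether the change differs between the gefitinib-selected and osimertinib-selected lines was tested over all genes, and edgeR called 0 of 13541 (0%, with 434 at an unadjusted p under 0.05). Limma-voom called 0 for this difference, with 494 unadjusted, and DESeq2 called 77, with 495 unadjusted. The fit leaves 1 residual degree of freedom. With 1 osimertinib-selected line, the drug and the line cannot be told apart.

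Lines differed in CYP1B1 more than states did. In TPM, the highest resistant library exceeded the lowest by 90.9 times and the highest parental library exceeded the lowest by 28.8 times, with H1975 highest in both. CYP1B1 was 4.65 times AHR in resistant and 4.04 times AHR in parental H1975, 0.596 times in resistant and 1.44 times in parental PC9, and 0.47 times in resistant and 0.696 times in parental HCC827. A nearby gene, the GTPase gene ATL2, was also lower in resistant cells, with log2 ratios of -1.27, -0.42 and -0.49. CDC42EP3 on the other side had 2.04, -0.30 and 0.00. RMDN2 overlaps CYP1B1 by 170 bases on the other strand and had at most 5.05 CPM in any library.

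TIPARP (ENSG00000163659, chr3:156673235-156706770 on the plus strand), the target whose protein modifies AHR, differed least of the targets in HCC827 and PC9. It was at 79.6 CPM in resistant and 59.1 CPM in parental HCC827, a ratio of 1.35 (1.26 to 1.44). It was at 99.7 CPM in resistant and 96.9 CPM in parental PC9, and at 90.1 CPM in resistant and 84.0 CPM in parental H1975, with ratios of 1.03 and 1.07. By intron reads the TIPARP ratio was 1.41 (0.924 to 2.18) in HCC827, 0.685 (0.521 to 0.899) in PC9 and 0.755 (0.547 to 1.04) in H1975, so exon and intron reads lay on opposite sides in PC9 and H1975. Its neighbour SSR3, a subunit of the translocon-associated complex, had log2 ratios of 0.73, 0.31 and -0.01, beside 0.43, 0.04 and 0.10 for TIPARP. AHRR, CYP1A1, CYP1B1 and TIPARP, all targets of the same receptor, thus did not share 1 pattern over the 3 lines.

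Set side by side per length, the 7 genes ranked differently in each line. In resistant HCC827, TIPARP led at 37.4 TPM, ahead of ARNT at 17.3, AHR at 13.0, AHRR at 7.19 and CYP1B1 at 6.11 TPM. In parental HCC827, AHR at 30.0 TPM and TIPARP at 29.3 TPM led, CYP1B1 was at 20.9, CYP1A1 at 10.5 and AHRR at 1.09 TPM. AHRR thus stood above CYP1B1 in resistant HCC827 and below CYP1A1 in parental HCC827. In PC9, AHRR was at 4.41 TPM in resistant and 0.969 TPM in parental cells and ranked below ARNT2 in both. In H1975, CYP1B1 led at 556 TPM in resistant and 602 TPM in parental cells, and AHRR stayed below ARNT, with AHRR at 20.1 TPM and ARNT at 37.7 TPM in resistant cells and AHRR at 9.68 TPM and ARNT at 37.4 TPM in parental cells. For every 100 TPM of AHR there were 55.2 TPM of AHRR in resistant and 3.63 in parental HCC827, 15.5 in resistant and 2.67 in parental PC9, and 16.8 in resistant and 6.49 in parental H1975, subject to the mostly non-unique reads of AHR.

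Counted over genes with at least 10 CPM in 1 of a line's libraries, 6 of the 7 genes were measured in HCC827, of which AHRR was at least 2-fold higher and AHR, CYP1A1 and CYP1B1 at least 2-fold lower in resistant cells. Among all 10298 genes so measured in HCC827, 10.5% were at least 2-fold higher and 7.65% lower. On uniquely mapping reads AHR did not reach 2-fold in HCC827 (log2 ratio -0.57), and 2 members rather than 3 were lower. In PC9, AHRR was higher and CYP1B1 lower of 6 measured, where 2.42% and 1.72% of 9911 genes were. In H1975, AHRR was higher and none was lower of 5 measured, where 1.76% and 3.22% of 9940 genes were. The median log2 ratio of the measured members was -0.50 in HCC827, 0.03 in PC9 and 0.10 in H1975, beside -0.01, -0.02 and 0.06 over all genes measured. Since the genes were picked on these values, nothing is read from the counts. The same side in all 3 lines was taken by AHRR, ARNT and TIPARP, which were higher, and by AHR and CYP1B1, which were lower, where 14.3% and 13.6% of 11481 genes were; for ARNT this held except on TPM and for AHR except on unique reads, and CYP1B1 in H1975, TIPARP in PC9 and ARNT in HCC827 and PC9 lay within counting error of no difference.

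The wider pathway was read from 6 lists with 75 genes, of which 60 reached 10 CPM in a library. Of these 60, 6 were higher in all 3 lines (10%) and 9 were lower (15%), beside 14.3% and 13.6% of all genes. Of 59 listed genes tested, edgeR, DESeq2 and limma-voom called 0, with 2, 6 and 2 at an unadjusted p under 0.05. The median log2 ratio over the lists was 0.14 in HCC827, -0.08 in PC9 and 0.08 in H1975. At 2-fold, 8 listed genes were higher and 8 lower of 50 measured in HCC827, where 10.5% and 7.65% of all genes measured were. In PC9, 0 were higher and 2 lower of 51, where 2.42% and 1.72% of all genes were. In H1975, 4 were higher and 2 lower of 53, where 1.76% and 3.22% of all genes were.

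Of 8 genes of the chaperone complex and its turnover, 0 differed 2-fold in any line. Over all genes measured, 10.5% were at least 2-fold higher and 7.65% lower in HCC827, 2.42% and 1.72% in PC9, and 1.76% and 3.22% in H1975. HSP90AA1, the inducible form of the chaperone that holds AHR in the cytoplasm, was at 1375 CPM in resistant and 2247 CPM in parental HCC827, at 4053 CPM in resistant and 7513 CPM in parental PC9, and at 2098 CPM in resistant and 2634 CPM in parental H1975. HSP90AB1, the other HSP90 gene listed, was higher in resistant HCC827 and H1975, with log2 ratios of 0.39, -0.04 and 0.44. It was named after its values were seen. The HSP90 co-chaperone PTGES3, also called p23, was lower in each line as HSP90AA1 was, with log2 ratios of -0.45, -0.32 and -0.51. SRC, a kinase found in the complex, had 0.37, 0.18 and 0.43. For HSP90AA1, edgeR gave a fitted log2 fold change of -0.64 ± 0.23 (SE) with an unadjusted p of 0.0414 and an adjusted p of 0.903.

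Of 7 measured bHLH-PAS relatives, 0 had log2 ratios of 1 sign over the 3 lines, where 14.3% of all genes were higher and 13.6% lower in every line. In HCC827, ARNTL, the clock gene also called BMAL1, was at least 2-fold higher and its relatives ARNTL2 and NPAS2 at least 2-fold lower in resistant cells, where 10.5% and 7.65% of all genes measured were. These 3 were named after their values were seen. Of 11 coregulators, the acetyltransferase gene EP300 had log2 ratios of 0.36, 0.00 and 0.19, the 1 gene on the same side in every line (9.09%). In PC9 it lay within counting error of no difference.

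**Figure D4:**
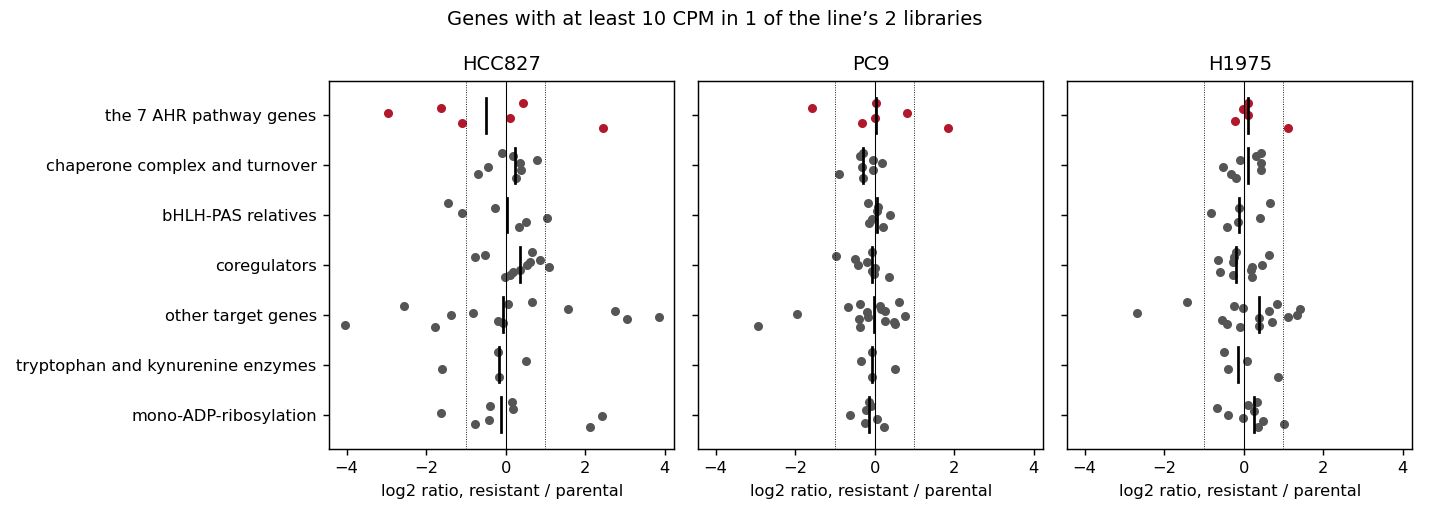
Log2 ratio of resistant to parental CPM, with 1 CPM added (horizontal axis), of each measured gene by line. Rows hold the 7 AHR pathway genes (red) and the 6 pathway lists (grey), with a black bar at each median and dotted lines at 2-fold. The HCC827 points spread most, and the medians of the 6 lists lie between -0.29 and 0.38 in the 3 lines. The median of the measured AHR pathway genes is -0.50 in HCC827, 0.03 in PC9 and 0.10 in H1975.

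Of 20 measured genes among other targets of the receptor, 3 were higher (15%) and 6 were lower (30%) in resistant cells of every line, beside 14.3% and 13.6% of all genes. Of the 6, ALDH3A1 and SERPINB2 were near 0 in 2 of the lines. NEDD9 and IL6 in PC9 and HES1 in H1975 lay within counting error of no difference. STC2, which encodes the secreted glycoprotein stanniocalcin, was at 969 CPM in resistant and 143 CPM in parental HCC827, at 171 CPM in resistant and 143 CPM in parental PC9, and at 308 CPM in resistant and 196 CPM in parental H1975. NEDD9, a scaffold of focal adhesions, was at 46.7 CPM in resistant and 15.01 CPM in parental HCC827, 31.6 CPM in resistant and 28.4 CPM in parental PC9, and 114 CPM in resistant and 42.1 CPM in parental H1975. Its fitted log2 fold change was 1.08 ± 0.35 (SE), with an edgeR unadjusted p of 0.0285 and an adjusted p of 0.903. IL6, a cytokine, was at 42.0 CPM in resistant and 4.16 CPM in parental HCC827, with log2 ratios of 0.15 and 0.38 in PC9 and H1975.

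ABCG2, a drug efflux pump, was at 1.24 CPM in resistant and 8.67 CPM in parental HCC827, at 20.5 CPM in resistant and 27.4 CPM in parental PC9, and at 57.3 CPM in resistant and 77.3 CPM in parental H1975. NQO1, a quinone reductase that the antioxidant factor NRF2 also induces, was at 26.1 CPM in resistant and 446 CPM in parental HCC827, and its log2 ratios were -0.36 and -0.08 in PC9 and H1975. HES1, a repressor best known as a Notch target, had log2 ratios of -2.57, -0.66 and -0.02. EREG, an EGFR ligand, was at 15.6 CPM in resistant and 106 CPM in parental H1975, with -0.83 in HCC827 and -0.18 in PC9.

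Other targets went one way in 1 line and the other way in another. The chemokine gene CXCL8 was at 161 CPM in resistant and 10.2 CPM in parental HCC827 and at 283 CPM in resistant and 131 CPM in parental H1975, yet at 6.29 CPM in resistant and 27.1 CPM in parental PC9. PTGS2, the inducible cyclooxygenase, had log2 ratios of -1.37, -0.36 and 1.35. XDH, the purine-oxidising xanthine dehydrogenase, had -0.36, 0.62 and -1.43, and the cytokine gene IL1B had 0.61, 0.76 and -0.62. ALDH3A1, a detoxifying aldehyde dehydrogenase, was at 25.2 CPM in resistant and 200 CPM in parental PC9. It had at most 0.0657 CPM in resistant and 0.0849 CPM in parental cells of the other lines, below the level of 3 reads. CYP1A2, the liver member of the CYP1 family, reached at most 0.113 CPM. SERPINB2, CYP1A2 and, below, KYNU were named after their values were seen.

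Of 5 measured enzymes of tryptophan and kynurenine metabolism, which yields AHR ligands, 0 had log2 ratios of 1 sign over the 3 lines. Among all genes, 14.3% were higher and 13.6% lower in every line. IDO1, IDO2, TDO2 and IL4I1, from the same list, were under 10 CPM in every library and so not measured. These were named after their values were seen. KYNU, kynureninase, was at least 2-fold lower in HCC827, at 4.95 CPM in resistant and 17.0 CPM in parental cells, but higher in resistant PC9, at 176 CPM against 123 CPM in parental PC9. Of 9 measured genes of mono-ADP-ribosylation, the family to which TIPARP belongs, PARP6 was higher in each line, at 20.8 CPM in resistant and 4.01 CPM in parental HCC827 and with log2 ratios of 0.23 in PC9 and 0.37 in H1975. PARP16, an enzyme of the endoplasmic reticulum, was lower in each, with -0.41, -0.21 and -0.67, though within counting error of no difference in PC9.

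Among the genes whose 3 log2 ratios lay near those of AHRR, by root mean square difference over the 3 lines among 11474 genes, were SELENOM, ATP8B2, TMEM45A and ADAMTS10, at 0.22 to 0.44. SELENOM, which encodes a selenoprotein of the endoplasmic reticulum, had log2 ratios of 2.10, 1.68 and 1.14. It was at 34.0 CPM in resistant and 7.18 CPM in parental HCC827, at 14.1 CPM in resistant and 3.73 CPM in parental PC9, and at 139.6 CPM in resistant and 62.8 CPM in parental H1975. ATP8B2, a phospholipid flippase gene, had 2.04, 1.76 and 0.81. With 3 lines, such likeness is a description of these libraries.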

How the data were processed

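Stranded poly(A) RNA-seq was measured in 6 libraries, 3 resistant and 3 parental, grouped by the labels. Trimmomatic and Bowtie2 are named, beside build hg38, per the submitters' processing notes, with no role or version. The authors deposited a gene table per library with whole-number read counts (exon, intron and uniquely mapping reads, per the file headers) and a TPM value. Whether counting used strand was not given in the sources used here. Exon counts were scaled by edgeR's TMM factors to CPM. Ratios within a line carry 1 CPM on each side before the log2, with no test, and intervals are exact Poisson or Clopper-Pearson at 95%. Across lines, edgeR 4.0.16 (quasi-likelihood, filterByExpr with a minimum count of 10 and minimum total of 15, cell line as block, 2 residual degrees of freedom, 1 for the difference between drugs, Benjamini-Hochberg) was fitted in R 4.3.3, with DESeq2 1.42.0 and limma 3.58.1 as alternatives. The model was tested on counts simulated from its own fit. That run checked the code, and nothing is read from it about the calls here. Libraries of 1 line deviated together from the state means (r of 0.592, 0.844 and 0.803 over 13541 genes), so the line pairs them. Separate cultures within a line are not stated, and p-values rest on how the resistant-to-parental change varies between these 3 lines. The members, lists and tests were chosen with earlier results of these data known. Listed genes were named by a rule: up to 3 per list with at least 10 CPM and the same direction in every line, preferring those whose smallest absolute log2 ratio over the lines was largest, and the 2 highest and 2 lowest of each line. The table of the whole series was not used here. Of the 5 genes most like AHRR in their ratios, 1 is not reported here.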

Additional observations from a re-analysis of the deposited data

How the results depend on the processing

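Of 126 alternative values for the members' log2 ratios within a line, 110 stayed within counting error of the reported value and 16 moved beyond it. Of 42 for the intron ratios, 4 moved, all with factors from intron counts. AHRR moved to 1.95 in HCC827 and 2.17 in PC9, AHR in PC9 to -0.16, against -0.44, and ARNT2 in HCC827 to 2.10. That setting also makes the 1 CPM added weigh less. With 0.1 CPM added and exon factors, the intron log2 ratio in HCC827 was 1.83 for AHRR and 1.92 for ARNT2. The exon ratio changed side for AHR in H1975 with uniquely mapping reads (0.10) and for ARNT in PC9 on TPM. For AHRR the alternatives gave 1.67 to 2.76 in HCC827, 1.15 to 2.17 in PC9 and 0.98 to 1.15 in H1975. No member was at least 2-fold higher in H1975 when 5 CPM was added or TPM was used with 1 TPM added (0 in each). With nothing added, AHRR in H1975 was at 20.1 TPM in resistant and 9.68 TPM in parental cells, just over 2-fold. In HCC827, 2 members were at least 2-fold higher with no minimum CPM, where ARNT2 joins AHRR. On uniquely mapping reads, 2 members rather than 3 were at least 2-fold lower in HCC827, where AHR dropped out. Over all genes, DESeq2 called 58 for resistance and 77 for the difference between drugs, where edgeR called 0. Fitted without the cell line block, the count was 0 in edgeR (47 genes had an unadjusted p under 0.05), and CYP1B1 had a log2 fold change of -0.15. Leaving out 1 line, the fitted CYP1A1 log2 fold change ran from -2.69 to 0.11, with the highest value without HCC827, and that of AHRR from 1.64 to 2.52. The cause was not tested. With library size as the sole scaling, the all-gene median in HCC827 was -0.12, against -0.01 with TMM factors. Leaving out a line in the drug fit was not run, since no residual degrees of freedom remain. With 1 library per state and line, and 10 to 26 reads of CYP1A1 in 3 libraries, depth and replication limit the small ratios.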
